A study of Mus musculus with 9 samples.

Results

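Open chromatin at 10 genes of the Notch pathway was followed in mouse brain endothelial cells (ECs). The genes were the receptors Notch1 and Notch4, the ligands Dll1, Dll4, Jag1 and Jag2, the nuclear factor Rbpj and the target genes Hey1, Hey2 and Hes1. Every peak that the authors' annotation gave to 1 of these genes was taken from 9 Omni-ATAC-seq peak lists, which came to 398 of 253457 peaks. Merging peaks that shared at least 1 bp gave 113 regions of these genes among 92495 in all. Young ECs gave 2 WT Cre and 3 EC-K4KO libraries, and old ECs gave 2 libraries of each genotype (EC-K4KO, with Klf4 deleted, is ECK4KO in the labels). Klf4 encodes a zinc finger transcription factor that is induced by flow in endothelium. The study's methods state that EC-K4KO mice carried floxed Klf4 and CDH5-CreERT2, a tamoxifen-inducible Cre under the promoter of VE-cadherin, which is active in endothelium of every organ. WT Cre controls carried the same Cre with intact Klf4, both genotypes received tamoxifen as young adults, and live ECs were isolated by flow sorting. The labels give age as young or old. They also give library names that begin with A1 in all young and A2 in all old libraries, so age and whatever that prefix marks cannot be told apart.

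Notch receptors are cleaved after a ligand on a neighbouring cell binds them, and the freed intracellular domain enters the nucleus. There it joins Rbpj, a DNA-binding protein that otherwise holds target genes off, and the complex switches on Hes and Hey genes, which encode repressors. In blood vessels this pathway separates tip from stalk cells during sprouting, supports arterial identity and couples ECs to the mural cells around them. Dll4 and Jag1 are the main endothelial ligands, and Notch1 and Notch4 the main endothelial receptors.

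At the start sites, chromatin of most of these genes was already open in young WT Cre ECs. The start sites of Notch1, Notch4, Dll4, Jag1, Hey1, Hes1 and Rbpj had a peak in all 9 libraries, that of Hey2 in 8, Jag2 in 7 and Dll1 in 5. Among 4872 regions open in every library, the Hey1 start site stood highest in the 3 young EC-K4KO libraries and low in the 6 others. It was ranked higher in young EC-K4KO than in young WT Cre ECs. Averaged over the genotypes it was ranked lower with age, with a sign that turned when ranks were taken in the whole lists. In WT Cre alone its age difference was not called. A region 12.1 kb upstream of Hes1 took a higher rank in old than in young ECs. The Notch4 start site had its lowest ranks in young EC-K4KO ECs, which turned against young WT Cre in the whole lists. Peaks outside the promoter-TSS class numbered 4 and 14 in young WT Cre and 67 and 57 in old EC-K4KO ECs, in step with the length of the lists.

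Sequences are shown for 4 places on which these results turn. They are distal regions of Jag1 and Hey1 that had no peak in young WT Cre ECs and a peak in all 7 other libraries, the distal Hes1 region, and the bases before the first exon of Notch4. All are on the plus strand of GRCm38, the build also called mm10. The distal sequences are the central 300 bases of each merged region, read from the RefSeq copy of the assembly, and none overlaps an exon of GENCODE M21. The Hey1 window lies wholly inside a peak in young EC-K4KO 1 alone (chr3:8684460-8685246). In the other libraries with a peak in that region, it began between 8685057 and 8685256. The Hey1 window is thus mostly or wholly outside those peaks. The Notch4 sequence holds 223 of the 250 upstream bases in the RefSeq promoter table, in which 8 of the 10 genes were matched, and Hey1 and Hes1 had no entry. Capitals mark 5 motifs searched on both strands, namely TGGGAA (RBPJ), CACCC (KLF), CACGTG (E-box), CCGGAA (ETS) and ACAAT (SOX). No 2 matches share a base.
Jag1 intron 2, chr2:137109794-137110093: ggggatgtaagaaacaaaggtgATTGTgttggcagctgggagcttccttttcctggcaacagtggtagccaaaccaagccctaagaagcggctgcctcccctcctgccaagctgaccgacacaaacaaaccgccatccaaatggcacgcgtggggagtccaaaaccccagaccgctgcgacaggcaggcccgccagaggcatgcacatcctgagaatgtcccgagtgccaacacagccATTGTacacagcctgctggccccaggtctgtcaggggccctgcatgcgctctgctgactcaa
Hey1 18.3 kb upstream, chr3:8684833-8685132: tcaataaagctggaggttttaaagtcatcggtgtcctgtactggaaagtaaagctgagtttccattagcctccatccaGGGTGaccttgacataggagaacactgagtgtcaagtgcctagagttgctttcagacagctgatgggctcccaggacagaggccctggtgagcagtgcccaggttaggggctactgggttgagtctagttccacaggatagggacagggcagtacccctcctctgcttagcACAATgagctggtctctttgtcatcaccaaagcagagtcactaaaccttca
Hes1 12.1 kb upstream, chr16:30053156-30053455: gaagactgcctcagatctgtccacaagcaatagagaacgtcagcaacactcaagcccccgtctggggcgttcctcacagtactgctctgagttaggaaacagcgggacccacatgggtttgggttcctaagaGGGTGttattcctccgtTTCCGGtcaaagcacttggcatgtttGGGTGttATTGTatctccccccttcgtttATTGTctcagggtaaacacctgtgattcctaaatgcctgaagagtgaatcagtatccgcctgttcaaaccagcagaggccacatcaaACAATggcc
Notch4 promoter, chr17:34564045-34564267: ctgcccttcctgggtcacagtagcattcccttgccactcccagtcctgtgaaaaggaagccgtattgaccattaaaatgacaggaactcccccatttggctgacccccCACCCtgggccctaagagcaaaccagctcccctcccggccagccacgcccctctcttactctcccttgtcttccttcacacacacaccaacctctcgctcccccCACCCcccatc

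The Jag1 sequence held 2 SOX matches and none of the other 4 motifs. The Hey1 sequence held 1 KLF and 1 SOX match, in a window mostly outside the peaks of libraries other than young EC-K4KO 1. The Hes1 sequence held 2 KLF, 1 ETS and 3 SOX matches, and the Notch4 sequence held 2 KLF matches. None of the 4 held RBPJ or E-box letters in these windows. Such short motifs are common. Of 29506 non-promoter regions with a peak in at least 2 libraries, the central 300 bases held RBPJ letters in 29.5%, KLF in 55.6%, ETS in 8.53%, E-box in 5.47% and SOX in 41.8%. Of 32817 RefSeq promoters, the first 223 of the 250 upstream bases held KLF letters in 48.2%, RBPJ in 19.6%, SOX in 25.9%, ETS in 9.67% and E-box in 5.11%. A match describes letters and does not show that a factor binds there.

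The lists differed widely in length, from 6157 and 9598 peaks in young WT Cre to 45026 and 39079 in old EC-K4KO. Read counts were not analysed here and depth is therefore unknown. Over shared regions, replicates correlated with r = 0.749 in young WT Cre and with 0.875 to 0.973 in the other groups, and young WT Cre 1 had the shortest list. Of 12 endothelial marker genes, 6 to 11 had a promoter-TSS peak per library and all 12 had 1 in at least 1 library. Microglial (10 genes) and neutrophil (6 genes) markers had none in any library. Of 10 mural markers, 0 had a promoter-TSS peak in the 5 young libraries, 0 and 2 in old WT Cre, and 5 and 3 in old EC-K4KO, while Rgs5, Notch3, Abcc9 and Vtn had none anywhere. Neuron markers (8 genes) had 0 to 3, astrocyte markers (8 genes) 0 to 2 and oligodendrocyte markers (8 genes) 0 to 2 per library. The part of these cells in the results was not tested, and a change in the cells a library holds cannot be told apart from a change per cell. Klf4 itself had a promoter-TSS peak in all 9 libraries, at a place that says nothing of the deletion, since the deleted interval is not given in the sources used here.

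**Figure D1:**
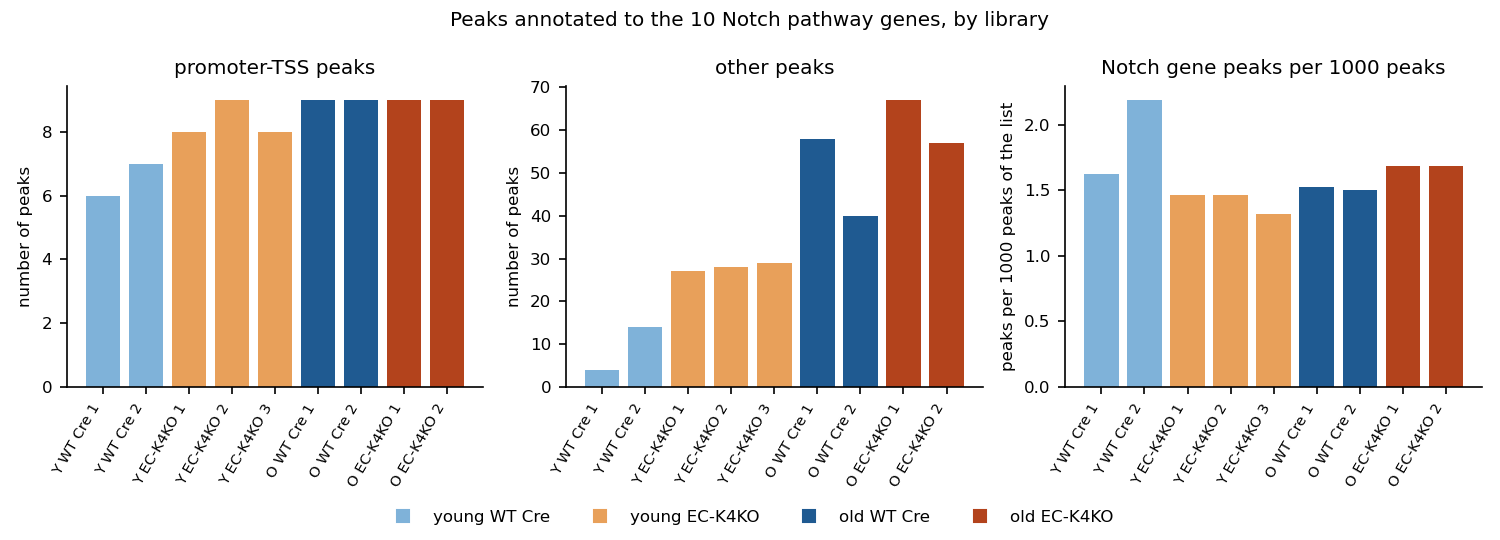
Number of promoter-TSS peaks, number of other peaks, and all peaks of the 10 Notch pathway genes per 1000 peaks of the list, 1 bar per library coloured by group. Promoter-TSS peaks run from 6 to 9 and other peaks from 4 to 67, while the number per 1000 peaks lies between 1.32 and 2.19.

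By peak number, the 10 genes had 10 and 21 peaks in young WT Cre, 35, 37 and 37 in young EC-K4KO, 67 and 49 in old WT Cre, and 76 and 66 in old EC-K4KO libraries. Promoter-TSS peaks differed little, at 6 and 7 in young WT Cre, 8 or 9 in young EC-K4KO and 9 in each old library. Peaks of other classes made up the rest. They include the Notch4 start site peak in each library and the upstream peak where the Hes1 start site region held 2. They numbered 4 and 14 in young WT Cre, 27, 28 and 29 in young EC-K4KO, 58 and 40 in old WT Cre, and 67 and 57 in old EC-K4KO. The groups did not overlap in the number of other peaks, except for the 2 old groups. Per 1000 peaks of the list, the genes had 1.91 ± 0.399 peaks (mean ± SD, n = 2) in WT Cre and 1.42 ± 0.0826 (n = 3) in EC-K4KO among young libraries, and 1.52 ± 0.0151 (n = 2) and 1.69 ± 0.000688 (n = 2) among old ones. When every list was reduced to its 6157 strongest peaks, the order of young and old turned, though young EC-K4KO 1 lay below both old EC-K4KO libraries. The genes then had 10 and 14 peaks in young WT Cre, 8, 12 and 11 in young EC-K4KO, 7 and 7 in old WT Cre, and 9 and 9 in old EC-K4KO, and 6 and 7, 6 to 8, 5 and 5, and 5 and 5 of them kept a promoter-TSS peak. All genes that kept 1 numbered 3399 and 3750, 3796 to 3957, 3836 and 3916, and 3836 and 3808 in the same order.

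Promoter peaks of these genes were wide. Their median width was 615 to 975 bp across the libraries, against 366 to 640 bp for all promoter-TSS peaks. Other peaks of the genes had median widths of 259.5 to 410 bp, against 320 to 392 bp for all other peaks. Strength was read as the percentile of a peak in its own list ordered by the -log10 p of the peak caller, with 0 the strongest. The lists differ in length, so an order of percentiles between groups may follow that length. Median percentiles of the promoter peaks were 55.3 and 42.8 in young WT Cre and 9.50 to 11.7 in the 7 other libraries. All promoter-TSS peaks had medians of 37.7 and 33.4 in young WT Cre and 15.4 to 21.7 in the others, so by their median the Notch gene promoters were weaker than promoters at large in young WT Cre and stronger in every other library. The other peaks of the genes had medians of 81.1 and 65.3 in young WT Cre and 47.2 to 62.0 elsewhere.

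Of the 113 regions, 46 had a peak in 1 library, 67 in at least 2, 33 in at least 5 and 9 in all 9. Jag1 had the most, with 36 regions reaching 571.1 kb upstream of its start, followed by Hey1 with 24. Notch1 and Rbpj had 11 each, Hes1 10, Hey2 9, Notch4 4, Dll4 4, and Dll1 and Jag2 2 each. The assignment of a distal peak is to the nearest start site and does not show which gene it serves. Of the 67 regions in at least 2 libraries, 9 were open in all 9 libraries, against 12.3% of all such regions. Among promoter-TSS regions 6 of 9 were open in all libraries, against 34.1% of all, and among other regions 3 of 58, against 4.95%. By gene, 6 of the 9 with a promoter-TSS peak had 1 in all 9 libraries, where 20.4% of all such genes did.

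**Figure D2:**
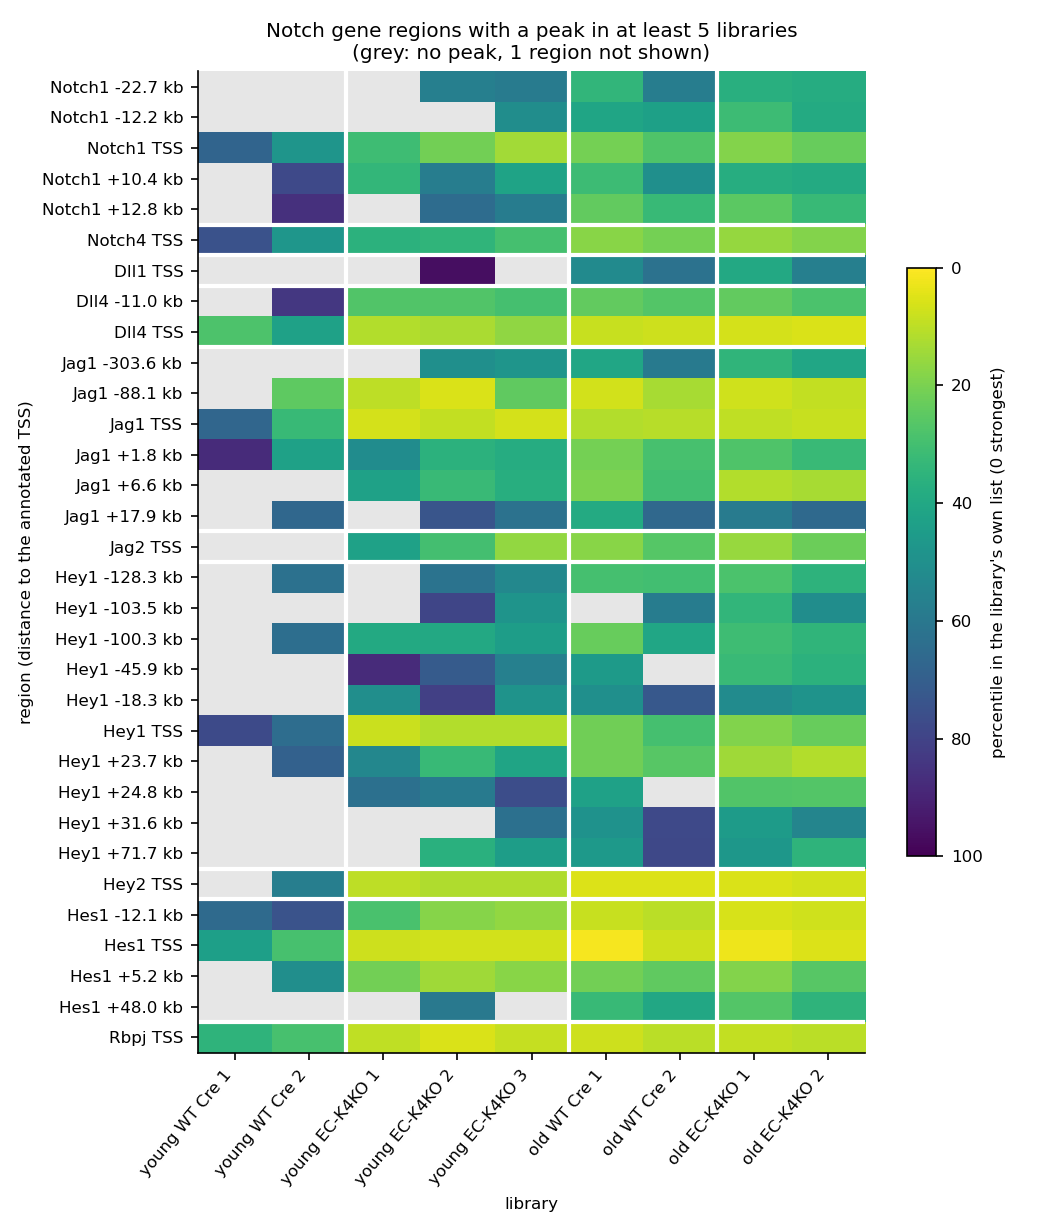
Percentile of each region in its library's own list, for regions with a peak in at least 5 libraries (1 such region is not shown), ordered by gene and by position from upstream to downstream (columns are libraries, grey is no peak). The 2 young WT Cre columns are mostly grey or dark, and the start sites of Hes1, Rbpj, Dll4 and Jag1 are bright in the 7 other libraries.

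In both young WT Cre libraries 47 of the 67 regions (70.1%) had no peak, against 77.3% of all regions. By class these were 2 of 9 promoter-TSS regions, against 45.8%, and 45 of 58 other regions, against 87.9%. Only 4 of the 67 were absent there and present in all 7 other libraries, against 9.21% of all, among them the Jag2 start site and the distal Jag1 and Hey1 regions printed above. A peak in at least 2 young EC-K4KO and no young WT Cre libraries was seen at 10 regions, against 23.9% of all. Both old WT Cre and no young WT Cre libraries had a peak at 23 regions, against 40.8%. These 2 comparisons share the young WT Cre libraries.

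At 11 regions, no young library had a peak and all 4 old libraries had 1, against 8.91% of all regions. They were 0 of 9 promoter-TSS regions, against 2.39%, and 11 of 58 other regions, against 11.1%. Jag1 held 5 of them, Notch1 2, and Notch4, Hey1, Hey2 and Hes1 1 each. At least 2 EC-K4KO libraries and no WT Cre library had a peak at 8 regions, against 14.1% of all, and 5 of these 8 were seen in both old EC-K4KO libraries and nowhere else. No region had a peak in a WT Cre library and in no EC-K4KO library, a pattern of 0.899% of all regions. Mural marker promoters had peaks in the same old EC-K4KO libraries (5 and 3 of 10 genes), and their part in these counts was not tested.

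**Figure D3:**
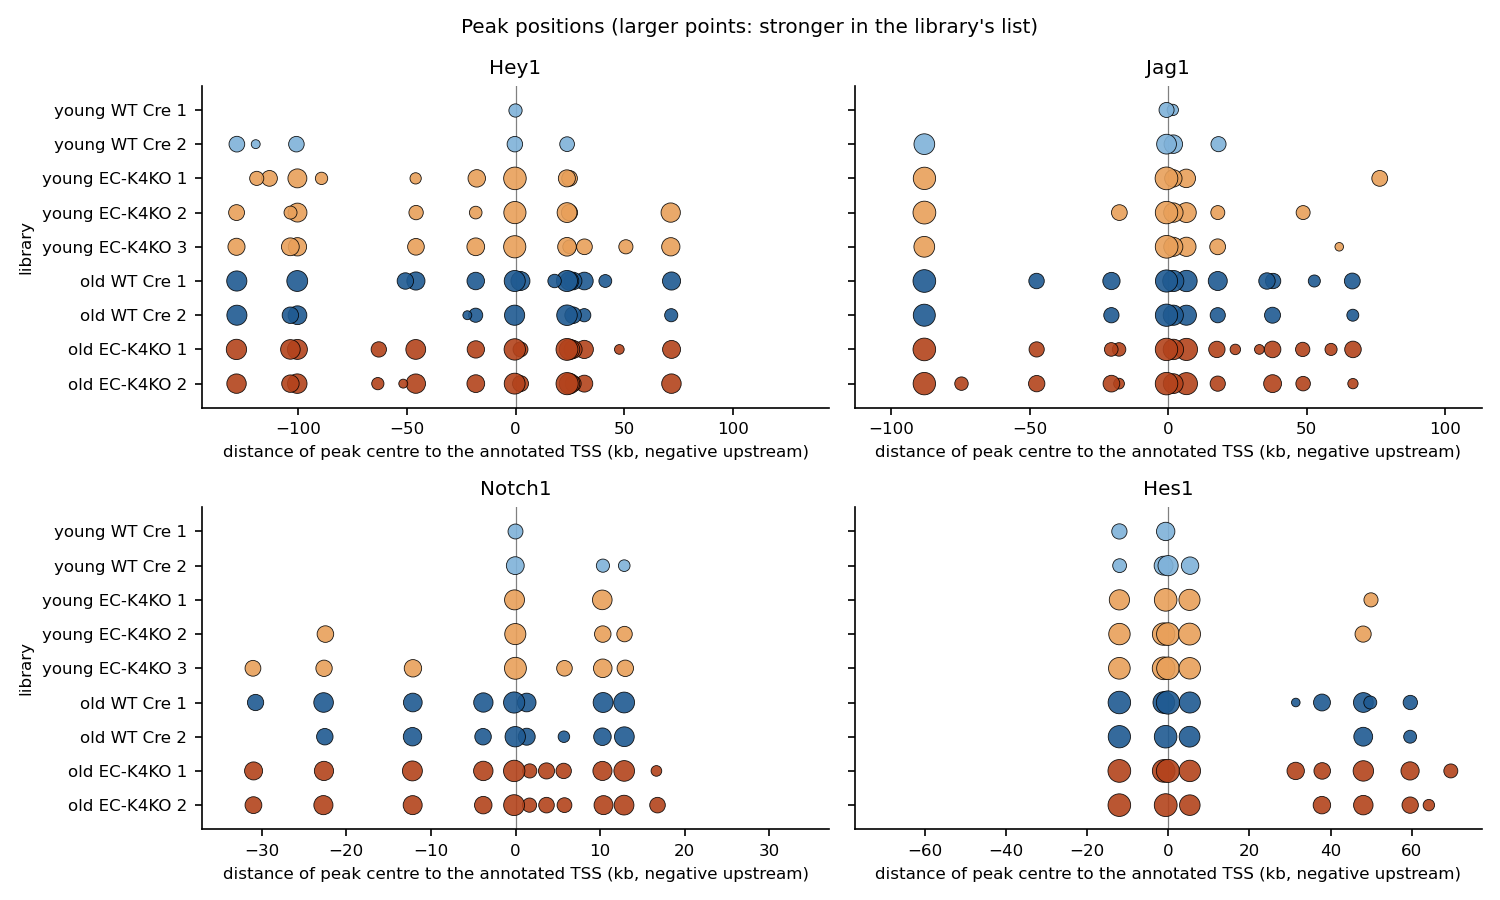
Distance of each peak centre to the annotated start site for Hey1, Jag1, Notch1 and Hes1, 1 row per library, with larger points for peaks that stand higher in their list (Jag1 peaks beyond the drawn range are left out). Young WT Cre 1 has 1 point at Hey1 and at Notch1 and 2 at Jag1 and at Hes1, and the old rows have the most points.

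For the tests, the regions with a peak in all 9 libraries were ranked within each library and the ranks turned into normal scores, on which 1 unit is 1 SD of the 4872 regions. Group means of these scores were compared with limma, and adjusted p-values are Benjamini-Hochberg values over all 4872 regions. The 9 regions of the Notch genes that entered were the start sites of Notch1, Notch4, Dll4, Jag1, Hey1, Hes1 and Rbpj, a Jag1 region 1.8 kb downstream of its start, and the Hes1 region 12.1 kb upstream. A higher score means a stronger place relative to the other shared regions and not more open chromatin in absolute terms. For EC-K4KO against WT Cre within age, 0 of the 9 were called, against 0.759% of all regions (37). An unadjusted p under 0.05 was seen for 4 of the 9, against 15.7% of all. Without young WT Cre 1, which left 16 regions of these genes among 7440, 2 were called (341 in all), and without young WT Cre 2 it was 2 of 9 (405 of 5386). For age within genotype 2 of the 9 were called, against 20.9% (1017), and without young WT Cre 1 it was 5 of 16 (1888 of 7440). For young EC-K4KO against young WT Cre 2 of the 9 were called, against 4.15% (202), and without young WT Cre 1 it was 5 of 16 (747 of 7440). For old WT Cre against young WT Cre 0 were called, against 6.08% (296). An unadjusted p under 0.05 was seen there for 2 of 9, against 26.6% of all (1294). The difference between the genotype effects at the 2 ages called 0 regions of 4872, 0% of all, with 525 at an unadjusted p under 0.05. Each p-value rests on 1 spread per region, pooled over all 4 groups of 2 or 3 libraries and drawn by limma towards that of other regions. The study calls the libraries biological replicates. An unadjusted limma p under 0.05 was seen for 23.9% of all regions in young EC-K4KO against young WT Cre and for 36% with age. Where libraries are said below to stand apart from others or groups not to overlap, the share of all regions with the same order was not counted.

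**Figure D4:**
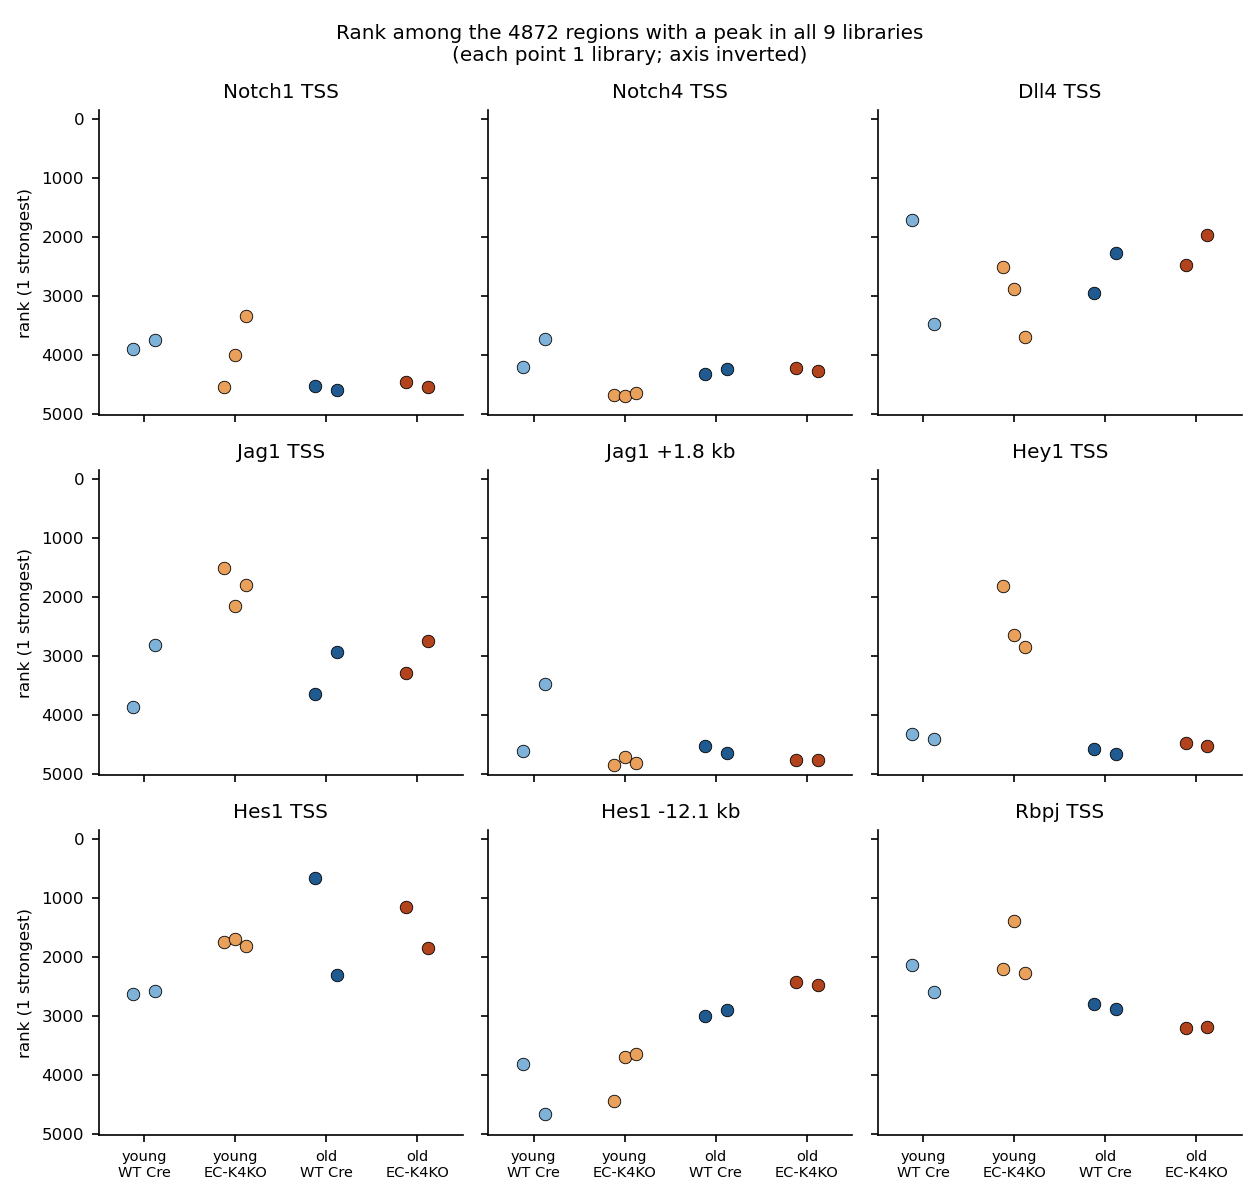
Rank of each of the 9 shared Notch gene regions among 4872 regions, 1 point per library, with the strongest at the top of the inverted axis. At the Hey1 start site the 3 young EC-K4KO libraries lie between 1813 and 2842 and the 6 others between 4325 and 4655, where in whole-list percentiles young WT Cre lies below the old libraries.

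Hey1 encodes a basic helix-loop-helix repressor that is a direct target of Notch in ECs. Its start site region (chr3:8666799-8668080, covering the annotated start of the minus-strand gene) ranked 4325 and 4405 of 4872 in young WT Cre, 1813, 2647 and 2842 in young EC-K4KO, 4575 and 4655 in old WT Cre, and 4479 and 4533 in old EC-K4KO. The 3 young EC-K4KO libraries stood apart from all 6 others, which lay close together near the end of the order. Mean scores were -1.26 ± 0.06 (SD, n = 2), 0.00 ± 0.29 (n = 3), -1.62 ± 0.11 (n = 2) and -1.44 ± 0.06 (n = 2) in the same order. The score was higher by 1.26 in young EC-K4KO than in young WT Cre (SE 0.22, limma adjusted p = 0.0192). With age within genotype it fell by 0.90 (SE 0.16, limma adjusted p = 0.00527), while old WT Cre against young WT Cre differed by -0.36 (SE 0.24, adjusted p = 0.352). Over both ages the EC-K4KO difference was 0.72 (SE 0.16, adjusted p = 0.0706), which passed without young WT Cre 1 (0.0431) or 2 (0.0344) and reached 0.368 in the other leave-outs. The genotype effect differed between the ages by -1.08 (SE 0.33, unadjusted p = 0.00704), which did not pass over all regions (adjusted p = 0.361).

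In the whole lists, the Hey1 start site stood at percentiles 77.7 and 64.1 in young WT Cre, 7.83, 11.5 and 11.3 in young EC-K4KO, 21.7 and 29.4 in old WT Cre, and 18.9 and 23.2 in old EC-K4KO. On that scale the young EC-K4KO libraries were again the strongest, but young WT Cre moved below the old libraries, and the age difference changed sign to 0.816 (log2 odds of the percentile, coded so that higher is stronger, adjusted p = 0.0522). The median of all 4872 regions moved by 1.76 in the same contrast, and against that median Hey1 stood at -0.94. With young WT Cre 1 left out, the adjusted p was 0.0155 for young EC-K4KO against young WT Cre and 0.00684 for age. The first call was lost without young EC-K4KO 2 (adjusted p = 0.0614), old EC-K4KO 1 (0.0576) or old EC-K4KO 2 (0.0577), and the age call in none of the 9 leave-outs. Ranking by fold enrichment left the same signs (0.94 and -0.63) without a call (adjusted p = 0.158 and 0.0971).

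Around Hey1, 10 of its 24 regions were open in at least 5 libraries. Besides the start site they lay 128.3, 103.5, 100.3, 45.9 and 18.3 kb upstream and 23.7, 24.8, 31.6 and 71.7 kb downstream, all in intergenic sequence. The region 23.7 kb downstream had a peak in 8 libraries, with percentiles of 69.1 in young WT Cre 2, 53.6, 32.4 and 41.8 in young EC-K4KO, 21.5 and 26.2 in old WT Cre, and 14.4 and 11.5 in old EC-K4KO. The region 100.3 kb upstream was also open in 8 libraries, and its width was 179 bp in young WT Cre 2 and 1084 to 1446 bp in the other 7. The region 18.3 kb upstream had no peak in young WT Cre and stood at 48.6 to 81.0 in the rest.

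Hes1 encodes a repressor of the same class, which Notch induces in many tissues. Its distal region (chr16:30053094-30053519) lies in intergenic sequence 12.1 kb upstream of the start. It ranked 3810 and 4663 in young WT Cre, 4444, 3698 and 3645 in young EC-K4KO, 3003 and 2897 in old WT Cre, and 2423 and 2475 in old EC-K4KO. All 4 old libraries stood above all 5 young ones. Of the 10 mural markers, 0 had a promoter-TSS peak in the young libraries, against 5 and 3 in old EC-K4KO and 0 and 2 in old WT Cre, and their part in this difference was not tested. The score was higher by 0.94 in old than in young ECs (SE 0.22, limma adjusted p = 0.0172), and by 0.98 in WT Cre alone (SE 0.33, adjusted p = 0.0921). The difference in WT Cre alone was 1.35 without young WT Cre 1 (adjusted p = 0.0174) and 0.49 without young WT Cre 2 (0.254). For genotype within age the difference was 0.30 (SE 0.22, adjusted p = 0.566).

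The fold enrichment of this Hes1 region over the local background was 4.43 and 3.72 in young WT Cre, 3.94, 8.81 and 9.50 in young EC-K4KO, 9.79 and 11.4 in old WT Cre, and 14.8 and 14.1 in old EC-K4KO. These last values were the highest among the 33 regions in at least 5 libraries. Young EC-K4KO 1 stood with young WT Cre and the 2 other young EC-K4KO libraries stood between young WT Cre and old. Ranking by fold enrichment gave an age difference of 2.05 (adjusted p = 0.00242). The call of age on the main scale was lost on leaving out any 1 of the 4 old libraries (adjusted p = 0.0615 and 0.0579 for old WT Cre 1 and 2, 0.0712 and 0.0732 for old EC-K4KO 1 and 2), with differences of 0.93 to 0.96. Its width was 215 and 228 bp in young WT Cre, 286, 325 and 364 bp in young EC-K4KO, 368 and 387 bp in old WT Cre, and 406 and 426 bp in old EC-K4KO, so that the 4 groups did not overlap. The median shared region was itself wider, by 0.47 (log2) with age and by 0.35 in EC-K4KO. Against the library median width, the age difference at Hes1 was 0.080 (log2, SE 0.080, limma adjusted p = 0.544). The EC-K4KO difference was -0.034 (SE 0.080, limma adjusted p = 0.861).

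At the Hes1 start site (chr16:30063960-30065448) ranks were 2639 and 2579 in young WT Cre, 1753, 1690 and 1813 in young EC-K4KO, 656 and 2301 in old WT Cre, and 1163 and 1858 in old EC-K4KO. Old WT Cre 1 and 2 were far apart, and neither age (0.41, SE 0.21, limma adjusted p = 0.186) nor genotype (0.18, SE 0.21, limma adjusted p = 0.715) was called. The rank takes the strongest peak of a region. Here old WT Cre 1 and old EC-K4KO 1 had 2 peaks and old WT Cre 2 and old EC-K4KO 2 had 1. Young libraries with 2 peaks ranked close to those of their group with 1. The part of this split in the ranks was not tested. The Hes1 region 5.2 kb downstream had peaks in 8 libraries and that 48.0 kb downstream in 5.

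Hey2, a close relative of Hey1 that marks arterial ECs, had a start site peak (chr10:30842446-30843260) in every library but young WT Cre 1. Its percentile was 57.3 in young WT Cre 2, 9.90, 11.7 and 11.99 in young EC-K4KO, 5.19 and 5.22 in old WT Cre, and 5.51 and 7.01 in old EC-K4KO. Its width was 573 to 748 bp and overlapped between the groups. Since young WT Cre 1 had no peak, the region was not among the 4872 tested.

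Notch4 encodes a receptor largely restricted to endothelium. Its start site region (chr17:34563954-34565216) covers the annotated start, and the authors' annotation places its centre in intron 1. It ranked 4200 and 3722 in young WT Cre, 4686, 4690 and 4649 in young EC-K4KO, 4316 and 4234 in old WT Cre, and 4225 and 4276 in old EC-K4KO. The 3 young EC-K4KO libraries were the lowest of the 9. Their score differed from young WT Cre by -0.84 (SE 0.20, limma adjusted p = 0.0439). In whole-list percentiles, young WT Cre stood at 74.7 and 47.5 and young EC-K4KO at 35.7, 34.7 and 29.3, and the difference changed sign to 1.72 (log2 odds), in a contrast where the median region moved by 2.24. The limma call held in 1 of 9 leave-outs, that without young WT Cre 1 (adjusted p = 0.0312). In the other 8, leaving out any 1 of the remaining libraries, the adjusted p lay between 0.0644 and 0.119, the last without young WT Cre 2, where the difference was -0.53. Between the ages the genotype effect differed by 0.87 (SE 0.30, limma adjusted p = 0.378).

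Notch1, the receptor through which Dll4 restrains sprouting, had a start site region at chr2:26503522-26504431. Its ranks were 3906 and 3738 in young WT Cre, 4545, 3991 and 3331 in young EC-K4KO, 4520 and 4592 in old WT Cre, and 4459 and 4538 in old EC-K4KO. The old libraries lay lower than young WT Cre, with young EC-K4KO spread across both. The age difference was -0.60 (SE 0.20, limma adjusted p = 0.0610) and so was not called, and it turned to 1.09 in whole-list percentiles. It passed without young WT Cre 1 (adjusted p = 0.0489) or young EC-K4KO 1 (0.0191) and reached 0.189 in the other leave-outs. Peaks of Notch1 numbered 1 and 3 in young WT Cre, 2, 4 and 7 in young EC-K4KO, 8 and 8 in old WT Cre, and 11 and 11 in old EC-K4KO. Regions in intron 2, 10.4 and 12.8 kb downstream, were open in 8 and 7 libraries, and regions 22.7 and 12.2 kb upstream in 6 and 5. The region 12.2 kb upstream (chr2:26515356-26516656) was classed as intergenic by the authors' annotation but overlaps an exon of Notch1 in GENCODE M21, whose outermost start for the gene is at 26516663.

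Jag1 encodes a ligand that ECs and smooth muscle cells both use. Its start site region (chr2:137116602-137117651) ranked 3874 and 2822 in young WT Cre, 1501, 2155 and 1791 in young EC-K4KO, 3646 and 2942 in old WT Cre, and 3288 and 2749 in old EC-K4KO. As at Hey1, the 3 young EC-K4KO libraries stood above all 6 others. The difference from young WT Cre was 0.84 (SE 0.25, limma adjusted p = 0.0779) and was not called. The region 1.8 kb downstream in intron 2 went the other way, with ranks of 4607 and 3474 in young WT Cre and 4842, 4713 and 4808 in young EC-K4KO (difference -1.10, SE 0.31, adjusted p = 0.0651, turning to 1.68 in whole-list percentiles). Young EC-K4KO thus had higher scores at the start site and lower ones inside intron 2 of the same gene, neither past the threshold. Both depended on which young WT Cre library was kept. The start site difference was 1.11 without young WT Cre 2 (adjusted p = 0.0171) and 0.47 without young WT Cre 1 (0.243). That in intron 2 was -1.41 without young WT Cre 1 (adjusted p = 0.0148) and -0.39 without young WT Cre 2 (0.330).

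A further intron 2 region of Jag1, 6.6 kb downstream, had no peak in young WT Cre. It stood at percentiles 42.6, 32.2 and 37.2 in young EC-K4KO, 19.5 and 30.4 in old WT Cre, and 11.7 and 12.9 in old EC-K4KO. Its width was 203, 339 and 462 bp in young EC-K4KO and 481 to 551 bp in the old libraries. A region 88.1 kb upstream of Jag1 was among the strongest distal peaks of the set, with percentiles of 24.7 in young WT Cre 2, 9.96, 5.66 and 24.4 in young EC-K4KO, 6.70 and 12.9 in old WT Cre, and 7.26 and 9.30 in old EC-K4KO. Regions 17.9 kb downstream and 303.6 kb upstream were open in 7 and 6 libraries.

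Dll4, the ligand of tip cells and arterial ECs, had 4 regions, none of them downstream of its start site peak. The start site region (chr2:119325566-119326193) overlaps Gm14207, a neighbouring transcript of GENCODE M21, besides Dll4. Ranks there were 1711 and 3472 in young WT Cre, 2515, 2879 and 3694 in young EC-K4KO, 2953 and 2266 in old WT Cre, and 2470 and 1972 in old EC-K4KO. The groups overlapped, and no contrast was called (differences of -0.23 for young EC-K4KO against young WT Cre, SE 0.31, and 0.22 for age, SE 0.23). The region 11.0 kb upstream was open in 8 libraries, with widths of 722 to 1189 bp. There, young WT Cre 2 stood at percentile 83.9 and the 7 other libraries at 24.0 to 29.5, a narrow range for lists of such different length.

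Jag2 and Dll1, the remaining ligands, were seen in fewer libraries. The Jag2 start site (chr12:112929753-112930369) had no peak in young WT Cre and stood at 42.7, 30.1 and 16.2 in young EC-K4KO, 17.8 and 26.2 in old WT Cre, and 15.6 and 22.3 in old EC-K4KO. The Dll1 start site (chr17:15375212-15376940) had a peak in young EC-K4KO 2, at percentile 96.2, and in the 4 old libraries at 52.2, 62.5, 39.6 and 57.0. A transcript named A930024N18Rik overlaps it in GENCODE M21. These 2 genes were the 2 of the 9 with a promoter-TSS peak that lacked it in both young WT Cre libraries, where 54.7% of all such genes did.

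Rbpj had its start site region (chr5:53588947-53590731) open in every library, the longest of the 9 shared regions, with peaks covering 1015 to 1785 bp. Ranks were 2133 and 2590 in young WT Cre, 2208, 1390 and 2277 in young EC-K4KO, 2793 and 2885 in old WT Cre, and 3209 and 3198 in old EC-K4KO. All 4 old libraries stood below all 5 young ones, with an age difference of -0.45 (SE 0.16, limma adjusted p = 0.0692) that was not called, passed without young WT Cre 2 (adjusted p = 0.0410, against up to 0.197 in the other leave-outs) and turned to 0.957 in whole-list percentiles. Its list percentile was 35.0 and 29.3 in young WT Cre and 5.63 to 10.4 elsewhere. Of its 11 regions 1 was open in at least 5 libraries.

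**Figure D5:**
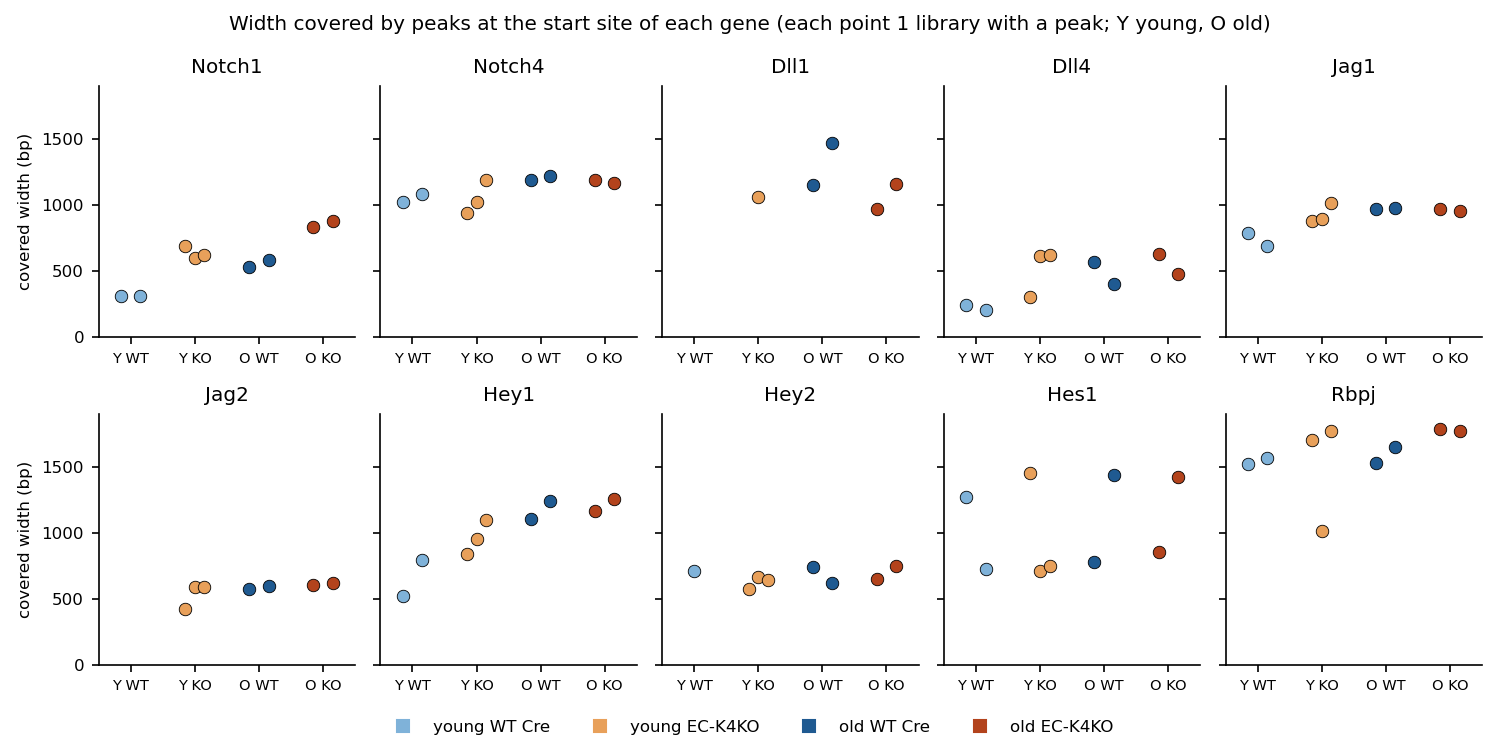
Width in bp covered by the peaks of each library at the start site of each of the 10 genes, 1 point per library with a peak, coloured by group. Notch1 spans 309 and 315 bp in young WT Cre and 833 and 879 bp in old EC-K4KO, and Hes1 falls into a narrow and a wide set in each group. The narrow Hes1 set holds the libraries in which the region was called as 2 separate peaks.

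Widths were compared as log2 of the covered bp minus the median of the library. None of the 9 regions was called for genotype within age, against 0.287% of all regions (14), or for age within genotype, against 7.61% (371). Unadjusted p-values were under 0.05 for 2 of 9 regions in each contrast, against 20.5% of all regions (998) for genotype and 30% (1460) for age. At the Notch1 start site the width was 309 and 315 bp in young WT Cre, 690, 600 and 624 bp in young EC-K4KO, 533 and 585 bp in old WT Cre, and 833 and 879 bp in old EC-K4KO. EC-K4KO exceeded WT Cre at both ages with no overlap (difference 0.44, SE 0.11, limma adjusted p = 0.133). At the Notch4 start site widths were 943 to 1218 bp in all groups, while the median shared region was wider by 0.35 (log2) in EC-K4KO and by 0.47 with age. The centred width differed by -0.40 (SE 0.078, adjusted p = 0.105) with genotype and -0.31 (SE 0.078, adjusted p = 0.0530) with age. The age difference turned to 0.18 without centring and passed with it on leaving out young WT Cre 1 (adjusted p = 0.0363) or 2 (0.0192), and the genotype difference passed without young WT Cre 2 (0.0269). In the other leave-outs they reached 0.202 and 0.418. At Hey1 the width was 519 and 790 bp in young WT Cre, 840 to 1097 bp in young EC-K4KO and 1102 to 1255 bp in the old libraries. The higher rank of Hey1 in young EC-K4KO thus came with wider peaks than in young WT Cre, while the widest in bp were in the old libraries. Against the library median, the Hey1 width differed by 0.12 with age (SE 0.10, limma adjusted p = 0.492).

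Of 50 other genes of the pathway, 38 had a promoter-TSS peak in at least 1 library and 11 in all 9. Of all genes with such a peak in at least 1 library, 20.4% had it in all 9. Per library 14 and 20 had 1 in young WT Cre, 22, 26 and 27 in young EC-K4KO, 29 and 29 in old WT Cre, and 33 and 29 in old EC-K4KO. All genes with a promoter-TSS peak numbered 3399 and 4479, 6054 to 7317, 8126 and 8094, and 8468 and 8279 in the same order. The 10 proteolysis genes, which include the gamma-secretase and ADAM proteases that release the intracellular domain, had 6 to 8 in every library. The receptor and ligand genes Notch3, Dll3, Dlk1 and Dlk2 had none, and neither had Furin, Psenen, Neurl1a, Maml2, Hes5, Hes7, Heyl and Itch. Inhibitors of the pathway (8 genes) had 1 and 1 in young WT Cre, 2 each in young EC-K4KO, 5 and 5 in old WT Cre, and 4 and 3 in old EC-K4KO. Promoters of 14 of the 50 entered the test, and 1 was called, Maml1, a coactivator of the Rbpj complex, in contrasts that called 20.9% (rank with age) and 7.61% (width with age) of all regions. Its score was higher by 0.63 with age (SE 0.16, limma adjusted p = 0.0234) and its centred width differed by -0.55 (SE 0.12, adjusted p = 0.0391). None of the 14 was called in the other contrasts of rank or width.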

How the data were processed

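Omni-ATAC-seq peak lists of 9 libraries in 4 groups were analysed. The authors trimmed reads with TrimGalore, aligned them to mm10 with Bowtie2, filtered them with Picard and SAMtools, called broad peaks in each library with MACS2 and annotated them to genes. The deposited lists give a score (a whole number set from the q-value), a ratio (fold enrichment over background), −log10 p and −log10 q, and the annotation gives the distance to the start site in bp. The read counts behind the authors' own differential test with DiffBind and DESeq2 were not analysed here, so depth is unknown.

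Groups came from the sample labels. Peaks sharing at least 1 bp were merged across libraries, and regions with a peak in all 9 libraries (4872) were ranked by −log10 p within these regions, turned into normal scores and compared with limma 3.58.1 in R 4.3.3, with 1 mean per group, an adjusted p threshold of 0.05 and no replicate block. Width was log2 of the covered bp less the library median. Other steps used Python 3.11.15, pandas 2.3.3, numpy 2.4.6 and scipy 1.17.1, and the scripts were tested on simulated data. Alternatives were the whole-list percentile (as log2 odds), fold enrichment, a q limit of 0.01, 25% coverage, regions in at least 8 libraries, uncentred widths, an exact permutation test, a replicate block, lists of equal length and leaving out each library. All 10 genes are named, with other regions named where at least 5 libraries had a peak, and of the other pathway genes those called. One distal region is counted but not reported here. Members and lists were chosen with earlier results of these data known.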

Additional observations from a re-analysis of the deposited data

How the results depend on the processing

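With ranks taken in the whole lists, the median of all 4872 regions moved by 1.76 with age, 1.21 with EC-K4KO, 2.24 in young EC-K4KO and 2.81 in old WT Cre against young WT Cre, and -2.08 for the difference between the ages (log2 odds). The calls among the 9 regions were then 8, 7, 8, 9 and 5 in the same order (3995, 3130, 4141, 4365 and 2249 regions in all). The sign turned at Notch4 (0.958 for EC-K4KO, 1.72 in young EC-K4KO and -1.52 for the difference between the ages), at the Jag1 region 1.8 kb downstream (0.665 for EC-K4KO and 1.68 in young EC-K4KO), and at Hey1 (0.816), Rbpj (0.957) and Notch1 (1.09) with age, and at Notch1 in old WT Cre (2.14). Against the moved median, Hey1 stood at -0.94 with age and 2.24 in young EC-K4KO, the Hes1 region at 1.42 with age and Notch4 at -0.52 in young EC-K4KO. Ranking by fold enrichment called 0 of the 9 in young EC-K4KO (82 in all, main 202) and 1 in old WT Cre (662 in all, main 296). With q of 0.01 or less, 6 of the 9 remained to be tested and 0 were called for age and in young EC-K4KO, since the Hey1 and distal Hes1 regions were no longer shared. Regions in at least 8 libraries (16 of these genes) gave 1 call for EC-K4KO (96 in all), 4 for age (1597), 2 in old WT Cre (712), and for width 1 for EC-K4KO and 2 for age. Widths without centring gave 2 calls for EC-K4KO (1506 in all) and 4 for age (3280), and turned the age difference at the Notch4 (0.18) and Jag1 (0.23) start sites. The exact permutation test called 0 for age, where 60 arrangements allow no p below 0.0167. After adjustment over 4872 regions, that floor passes only if a large share of all regions reaches it.

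Deviations of same-numbered libraries were weakly correlated: 1 of 12 pairs had r over 0.1, and r ran from -0.013 to 0.118. In groups of 2 libraries the values mirror each other, so pairs repeat values and are not 12 separate checks. With a replicate block, 0 regions of 4872 were called in young EC-K4KO (Hey1 adjusted p = 0.0677, Notch4 0.110, by limma), 0 for EC-K4KO (main 37) and 30 for width with age (main 371), and 2 of the 9 regions were called for age. Only young EC-K4KO has a replicate 3, so the block gave that library a term of its own. At the Hey1 and Notch4 start sites and the distal Hes1 region, the differences equalled those found on leaving that library out. The block is thus not a check on pairing that keeps all libraries.

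Leaving out each library, the calls among the tested regions of these genes (16 without young WT Cre 1, otherwise 9) ranged from 0 to 2 for EC-K4KO (0 to 405 in all), 1 to 5 for age (269 to 1888), 0 to 5 in young EC-K4KO (4 to 812), 0 to 2 in old WT Cre (0 to 919), 0 to 0 for the difference between the ages (0 to 89), and for width 0 to 2 by EC-K4KO (0 to 621) and 0 to 3 by age (10 to 1271). Genes holding a promoter-TSS peak differed in number by 0.917 with EC-K4KO (0.667 to 1.17 on leaving out a library) and 1.58 with age (1.33 to 1.83), and other peaks by 16 (11.5 to 20.5) and 37 (32.5 to 41.5). With lists of equal length these became 0.25, -1.75, -0.0833 and -1.42. The depth, for which no counts were analysed here, limits all presence calls.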
